A study of Gallus gallus with 6 samples.

Results

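PIGR encodes the polymeric immunoglobulin receptor, and its mRNA had the largest positive difference between mature and immature livers of breeder roosters among the listed mRNAs. It was taken as the row whose gene symbol is PIGR in the authors' deposited table of mRNAs. This is 1 of 1480 listed mRNAs, and of 2102 listed transcripts when the 622 lncRNAs are added. The gene was chosen by the 2 group levels of this row and by the rank of their difference, so these values are given as a description and were not tested. Mature livers came from Arbor Acres breeder roosters aged 40 weeks, with 1 rooster in each of 3 libraries. Immature livers came from male chicks of the same breed aged 1 day, with equal amounts of RNA from 4 chicks pooled in each of 3 libraries, so that 12 chicks were used. All birds were healthy and had gone without feed for 12 hours, the left side of the liver was taken, and the strand-specific libraries were made after removal of ribosomal RNA.

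The polymeric immunoglobulin receptor sits on the basolateral side of epithelial cells, where it binds polymeric IgA and IgM that carry the joining chain. Receptor and antibody are taken up together, cross the cell in vesicles and are released at the apical side, where the outer part of the receptor is cut off and stays with the antibody as secretory component. In chickens, rats and rabbits the hepatocytes carry out this transport into bile, whereas in the human liver it is mainly done by the bile duct epithelium. In mammals the gene is induced by interferon gamma, tumor necrosis factor and ligands of Toll-like receptors, through factors of the NF-kB and interferon regulatory families.

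The levels in the deposited tables are FPKM, the fragments of a transcript divided by its length and by the depth of sequencing, so they can be compared between transcripts of different length. Each transcript has 1 FPKM value for the mature and 1 for the immature group, as the authors computed them, with no value per library. No error, n or test across libraries can therefore be attached to any value below, and the spread between roosters or between pools of chicks is not seen. The study reports the reads of each library, but the group values do not carry this depth and it was not used here. Each difference is the log2(FPKM + 1) of mature livers minus that of immature livers. For transcripts with low values this scale gives a smaller change than the plain ratio. All listed transcripts had been called differentially expressed by the authors, so the tables hold few transcripts with near-equal levels. A gene that is not listed has no value here. The study's results section gives other numbers of called mRNAs and lncRNAs than are listed here, with most called mRNAs lower in mature livers. For lncRNAs its discussion gives 300 as up-regulated in mature livers, the number listed as higher here. The balance of higher and lower mRNAs given below is therefore that of the deposited list only.

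PIGR (ENSGALG00000000919) was listed at 184.534 FPKM in mature livers, against 0.185458 FPKM in immature livers. The difference was 7.29 on the log2(FPKM + 1) scale, and the plain ratio of the authors' group values was 995. In mature livers PIGR stood 68th from the top by level among the 1480 mRNAs, above 95.4% of them. In immature livers it stood 1385th, with only 95 mRNAs (6.42%) listed lower. Set against the median listed mRNA, PIGR was 49.7 times the median of 3.71 FPKM in mature livers, while in immature livers the median of 3.25 FPKM was 17.5 times PIGR. PIGR was thus near the upper end of the listed levels in mature livers and near the lower end in immature livers.

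The row of PIGR describes a single assembled transcript, which by its class code has the same intron chain as the annotated transcript. It lies on chromosome 26 between 2517672 and 2542896 in the coordinates of the deposited table. The study's methods name Gallus gallus 5 as the genome its reads were mapped to, and whether the deposited coordinates are of that build is not stated. It is the only listed row of its locus, in the mRNA and the lncRNA table alike. A rise of the whole gene and a shift between its transcripts cannot be told apart from 1 row. In the same way, in RNA of whole liver, more cells that express PIGR and more PIGR mRNA per cell cannot be told apart.

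**Figure D1:**
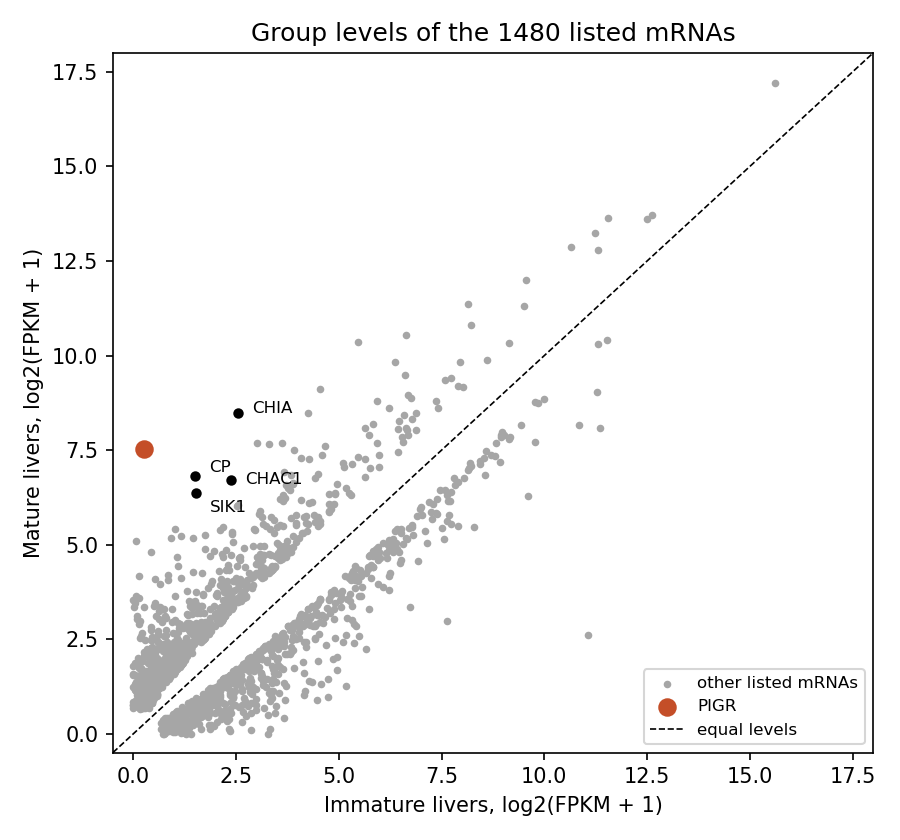
Each grey point is 1 of the 1480 listed mRNAs, with the authors' group level in immature livers on the x axis and in mature livers on the y axis, both as log2(FPKM + 1), and black points mark CHIA, CP, SIK1 and CHAC1. PIGR, the large coloured point, lies at 0.25 on the x axis and at 7.54 on the y axis, farther above the dashed line of equal levels than any other listed mRNA.

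Ranked by the log2(FPKM + 1) difference, PIGR was first of the 1480 mRNAs, 1.35 above the next. CHIA, which encodes an acidic chitinase and also lies on chromosome 26, came second, with 356.667 FPKM in mature and 4.80927 FPKM in immature livers (difference 5.94). CP, which encodes ceruloplasmin, a copper carrier of plasma, was 3rd, with 111.7 FPKM in mature and 1.82 FPKM in immature livers (5.32). These genes differ from PIGR mainly in immature livers, where both had a higher level. AGMO, which encodes an enzyme that cleaves alkylglycerol ethers, had a lower level than PIGR in immature livers, at 0.0451 FPKM, but reached only 33.0 FPKM in mature livers (5.03). The uncharacterized ENSGALG00000002493 was listed at 1320 FPKM in mature and 43.0 FPKM in immature livers (4.91). The kinase gene SIK1 had 80.8 FPKM in mature and 1.85 FPKM in immature livers (4.84). By the size of the difference in either direction PIGR was 2nd, after LFABP, a fatty acid-binding protein of the liver, which had 5.09 FPKM in mature and 2119 FPKM in immature livers (-8.44).

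The place of PIGR depends on how a change is measured. By the plain ratio, over the 1466 mRNAs with both values above 0, PIGR was again first with 995, followed by AGMO with 733 and IGJ with 636. With a pseudocount of 0.01 it was 2nd, with a log2 difference of 9.88, behind the class II chaperone gene DMA, which is listed at 0 in immature livers and had a difference of 10.1. By the plain difference in FPKM it was 42nd, behind small RNAs that the table lists among the mRNAs, such as SNORA73 and U3, and other abundant transcripts.

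Few listed mRNAs combined a level as low as that of PIGR in immature livers with a high level in mature livers. The cut-offs for this description were chosen after the values were seen, and PIGR had been chosen by the same 2 values. Of the 103 mRNAs with at least 100 FPKM in mature livers, PIGR had the lowest level in immature livers, and the next were CP with 1.82 FPKM and CHAC1 with 4.18 FPKM. Of the 234 mRNAs under 0.5 FPKM in immature livers, only 10 reached 10 FPKM in mature livers. PIGR headed them with 184.534 FPKM, and the next were AGMO with 33.0 FPKM, IGSF21, a member of the immunoglobulin superfamily, with 26.7 FPKM, and CREM with 16.9 FPKM in mature livers.

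The mRNAs most like PIGR were found by the distance between their pairs of log2(FPKM + 1) values, over the 2 group values only. The nearest with a gene symbol was CP at a distance of 1.44, followed by SIK1 at 1.73. ENPEP, the gene of the membrane protease glutamyl aminopeptidase, lay at 2.26, with 41.5 FPKM in mature and 1.03 FPKM in immature livers. CHAC1, which encodes a glutathione-degrading enzyme, lay at 2.28, with 104 FPKM in mature and 4.18 FPKM in immature livers. CD3D, a signaling subunit of the T cell antigen receptor, lay at 2.44, with 35.4 FPKM in mature and 0.872 FPKM in immature livers. No listed mRNA lay within a distance of 1 of PIGR and 2 lay within 2, while the median distance of the other mRNAs was 6.18. PIGR was chosen by the same 2 values, so a place far from most listed mRNAs follows from that choice and was not tested.

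**Figure D2:**
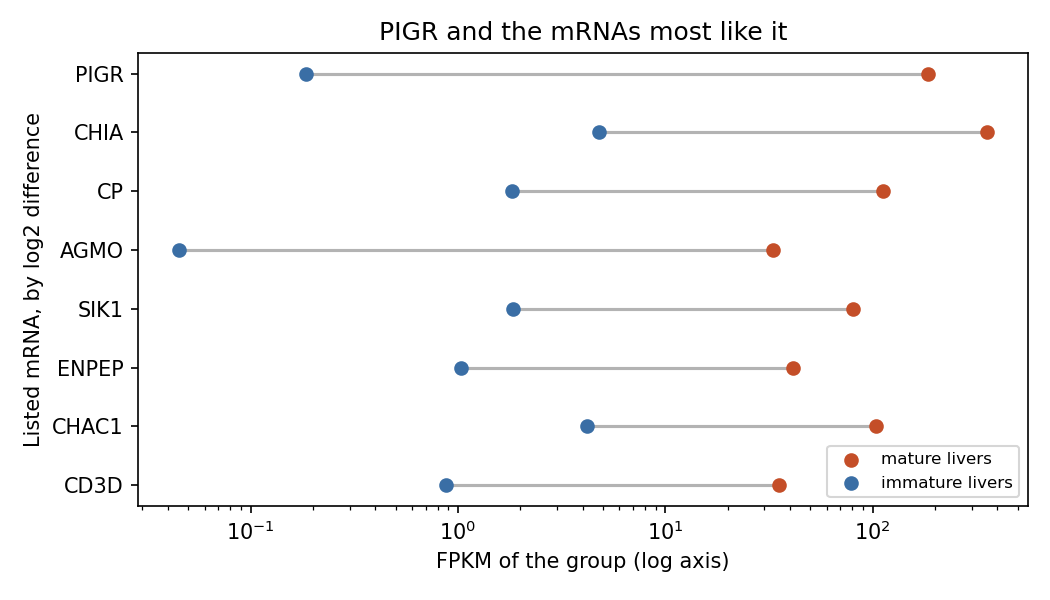
Authors' FPKM (log x axis) of the group of mature livers and of the group of immature livers for PIGR, for the mRNAs with a symbol that follow it most closely in rank and for the 5 nearest to it by distance, ordered by log2 difference. PIGR stands at 184.534 FPKM in mature and at 0.185458 FPKM in immature livers. Among the 8 mRNAs shown AGMO alone has a lower level in immature livers, and CHIA alone a higher level in mature livers.

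Among the 622 listed lncRNAs, 300 were higher in mature livers, and none had a difference as large as that of PIGR. The largest was that of TCONS_00033148, an intergenic lncRNA on chromosome 21, with 56.3 FPKM in mature and 0.876 FPKM in immature livers (4.93). It was also the lncRNA nearest to PIGR, at a distance of 1.82. TCONS_00033152, another lncRNA of the same locus, followed with 54.0 FPKM in mature and 1.01 FPKM in immature livers (4.77).

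The ligand side of the receptor was represented by the joining chain gene, listed as IGJ. The joining chain links the units of polymeric IgA and IgM and is the part that the receptor recognizes, and plasma cells make it. IGJ had 9.12 FPKM in mature and 0.0143 FPKM in immature livers, a ratio of 636 and a log2(FPKM + 1) difference of 3.32. PIGR and IGJ were thus both near the low end in immature livers, and in mature livers the level of PIGR was well above that of IGJ. PIGR was itself put in a list of 15 immunoglobulin and Fc receptor genes, and no other gene of it was listed. The levels of those other genes are therefore not seen here, and PIGR cannot be compared with them.

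In the list of polymeric immunoglobulin, B cell and plasma cell genes, 5 of 27 genes were matched by symbol or synonym. All 5 were higher in mature livers, and 4 passed a difference of 1 (2 with the scaling described next). The list also holds TNFSF13B, whose row, listed as BAFF, was not matched and is not in these counts. BAFF was higher in mature livers too (1.00) and is given with the pathway below. Over all listed mRNAs 35.9% passed a difference of 1 and 29.8% were under -1. These are 532 and 441 mRNAs as deposited, and 157 and 582 with mature values scaled to a median difference of 0. This background is made of mRNAs that the authors had selected. All of them pass 1 or -1 without a pseudocount, so the shares depend on how far the pseudocount of 1 shrinks each difference. The median difference of the matched genes was 1.62, against 0.64 over all listed mRNAs. Next to IGJ, CD38, an ectoenzyme of plasma cells and other leukocytes, had 8.87 FPKM in mature and 0.900 FPKM in immature livers (2.38). XBP1, a transcription factor of secretory cells that hepatocytes express too, had 264 FPKM in mature and 85.4 FPKM in immature livers (1.62). BTK, a kinase of B cell receptor signaling, had 2.33 FPKM in mature and 0.131 FPKM in immature livers (1.56). The B cell kinase BLK was listed at 1.07 FPKM in mature and 0.456 FPKM in immature livers (0.50).

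KEGG terms are given for 327 of the listed mRNAs, and PIGR is not among them. The pathway of the intestinal immune network for IgA production, in which the receptor acts by textbook knowledge, was given to 6 other mRNAs. All 6 were listed higher in mature livers, as were 812 of all 1480 listed mRNAs. A difference of 1 was passed by 5 of the 6, and by 35.9% of all listed mRNAs. BAFF passed it only narrowly, at 1.00178, and no count with scaled mature values was made for this pathway. DMB2, a chain of the class II peptide loading complex, had 20.5 FPKM in mature and 1.12 FPKM in immature livers (3.34), and DMA, the other chain, had 10.6 FPKM in mature livers and was listed at 0 in immature livers. The chemokine receptor CXCR4 had 8.41 FPKM in mature and 0.533 FPKM in immature livers (2.62). CD40LG, the T cell ligand that drives class switching, had 1.63 FPKM in mature and 0.0822 FPKM in immature livers (1.28). BAFF, a survival factor of B cells, had 1.56 FPKM in mature and 0.279 FPKM in immature livers (1.00), and the T cell costimulator CD28 had 3.93 FPKM in mature and 1.53 FPKM in immature livers (0.96). The level of PIGR in mature livers was above that of each of the 6.

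A wider list of IgA homing, switching and antigen presentation genes had 9 of 32 symbols matched, in 10 rows. Among the 32 the invariant chain stands under 2 names, Ii and CD74. BAFF, in the list as TNFSF13B, was not matched and is not in these counts. Of the 10 matched rows, 9 passed a difference of 1 and none was under -1, with a median of 2.98. The list shares DMA, DMB2, CXCR4, CD40LG, CD28 and the unmatched BAFF with the pathway above, so the counts are not separate. CD28 is also counted among the T cell markers below. Over all listed mRNAs 35.9% passed 1, and the median was 0.64. With mature values scaled to a median difference of 0, 6 of the 10 rows passed 1, and 157 of all 1480 mRNAs. The largest differences of the list were those of the invariant chain Ii, with 4.67 and 4.55 for its 2 listed transcripts, and of the class II beta chain BLB1, with 4.24. In mature livers these had levels in the range of PIGR or above, at 205, 548 and 356 FPKM. In immature livers they were listed at 7.06, 22.4 and 17.9 FPKM. Reads of BLB1 may be split with its near-identical copies, so its values are uncertain.

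A list of transcytosis and epithelial sorting held 54 genes, of machinery and also of cargo such as TFRC. Of these, 4 were listed, 1 past a difference of 1 and 1 under -1, with a median of -0.92. Over all listed mRNAs these shares were 35.9% and 29.8%. With mature values scaled to a median difference of 0, none of the 4 passed 1 and 3 were under -1. Scaled, 157 of all 1480 listed mRNAs passed 1 and 582 were under -1. RAB17, a small GTPase of epithelial cells, was the only other listed mRNA that shares with PIGR the GO term for transcytosis of immunoglobulin by this receptor. It had 3.42 FPKM in mature and 0.449 FPKM in immature livers (1.61). TFRC, the transferrin receptor, which is cargo rather than machinery, had 7.33 FPKM in mature and 35.7 FPKM in immature livers (-2.14). RAB11FIP2, an effector of recycling endosomes, had 1.95 FPKM in mature and 4.60 FPKM in immature livers (-0.93), and VPS29, a subunit of the retromer, had 6.18 FPKM in mature and 12.6 FPKM in immature livers (-0.92).

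PIGR carries 12 GO terms in the deposited table, where 1264 mRNAs have GO terms to read. For 4 of them, polymeric immunoglobulin receptor activity among these, PIGR was the only listed mRNA. Receptor clustering was shared with ITGB2, a leukocyte integrin chain with 24.5 FPKM in mature and 3.52 FPKM in immature livers (2.49). Receptor complex was shared with ITGB2 and ABCG8 (median -0.14), and retina homeostasis with IGJ, PRDX1 and Tulp (median -0.55). The 4 broad terms held many mRNAs in both directions, beside 35.9% past 1 and 29.8% under -1 over all listed mRNAs. Extracellular space was given to 68 others, with 37 past 1 and 13 under -1, and plasma membrane to 134, with 56 and 36. Extracellular exosome was given to 230 others, with 98 past 1 and 78 under -1, and protein binding to 721, with 233 and 225.

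A further list held 40 genes of the cytokine and Toll-like receptor signals that are known in mammals to induce PIGR, and of transcription factors. By symbol or synonym 10 were matched, 8 past a difference of 1 and 1 under -1, with a median of 1.18. The list also holds IL4R, whose row, listed as IL4RA, was not matched and is not in these counts. IL4RA had 9.65 FPKM in mature and 3.57 FPKM in immature livers (1.22). Over all listed mRNAs these shares were 35.9% and 29.8%. With mature values scaled to a median difference of 0, 1 of the 10 passed a difference of 1, and 157 of all 1480 listed mRNAs. NFKBIA, the inhibitor that holds NF-kB in the cytoplasm and is itself a target of NF-kB, had 43.6 FPKM in mature and 3.51 FPKM in immature livers (3.31). STAT3 had 13.7 FPKM in mature and 3.90 FPKM in immature livers (1.59), and the receptor TLR4 had 2.66 FPKM in mature and 0.297 FPKM in immature livers (1.50). The interferon gamma receptor chain IFNGR1 had 26.3 FPKM in mature and 10.5 FPKM in immature livers (1.25). The hepatocyte transcription factor gene listed as HNF4alpha had 5.24 FPKM in mature and 21.8 FPKM in immature livers (-1.87).

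Markers of the cells that could hold PIGR mRNA moved in several directions beside it. Of 28 biliary epithelial markers 3 were listed, none past a difference of 1 and 2 under -1. Over all listed mRNAs these shares were 35.9% and 29.8%, and 3 rows are too few to compare with them. CDH1, the epithelial cadherin, had 28.7 FPKM in mature and 84.1 FPKM in immature livers (-1.52), the keratin KRT8 had 16.7 FPKM in mature and 43.7 FPKM in immature livers (-1.34), and PKHD1, a protein of bile duct cilia, had 0.939 FPKM in mature and 0.404 FPKM in immature livers (0.47). The summed level of the listed biliary markers was 46.4 FPKM in mature and 128 FPKM in immature livers. Hepatocytes make CDH1 and KRT8 too. Of 20 genes of the bile canaliculus and bile transport 3 were listed. All 3 were lower in mature livers, as were 668 of all 1480 listed mRNAs. ABCG8, a subunit of a sterol transporter, had 0.0667 FPKM in mature and 6.25 FPKM in immature livers (-2.76). The steroid transporter subunit SLC51A had 25.2 FPKM in mature and 56.2 FPKM in immature livers (-1.13). The junction gene TJP3 had 0.373 FPKM in mature and 1.11 FPKM in immature livers (-0.62).

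Of 22 hepatocyte markers 5 were listed, 2 past a difference of 1 (0 when scaled) and 3 under -1. Over all listed mRNAs 35.9% passed 1 (157 of 1480 when scaled) and 29.8% were under -1. The largest difference was that of LFABP, given above with 5.09 FPKM in mature and 2119 FPKM in immature livers, and HNF4alpha was the other with a low level in mature livers, at 5.24 FPKM. TAT, an enzyme of tyrosine degradation, had 941 FPKM in mature and 385 FPKM in immature livers, and RBP4, the plasma carrier of retinol, had 1295 FPKM in mature and 564 FPKM in immature livers. AHSG, a secreted plasma protein, had 269 FPKM in mature and 2625 FPKM in immature livers (-3.28). Most hepatocyte markers are not listed, so the tissue label could be checked only on these.

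Leukocyte markers were listed higher in mature livers. Of 20 markers of T and natural killer cells 7 were listed, 6 past a difference of 1 and none under -1, and their summed level was 106 FPKM in mature and 11.6 FPKM in immature livers. CD3D and GZMA, a protease of cytotoxic cells with 7.70 FPKM in mature and 0.0578 FPKM in immature livers, had the largest differences (4.28 and 3.04). Of 19 macrophage markers 9 were listed, all past a difference of 1, while 35.9% of all listed mRNAs passed it as deposited. With mature values scaled to a median difference of 0, 5 of the 9 passed it, and 157 of all 1480 listed mRNAs. The summed level of the listed macrophage markers was 920 FPKM in mature and 144 FPKM in immature livers. CTSS, a protease of antigen processing, had 442 FPKM in mature and 60.0 FPKM in immature livers (2.86). No listed marker of these lists was at 0 in either group. Endothelial markers had 3 of 16 genes listed, with VWF at 1.20, LYVE1 at 1.11 and STAB2 at -0.92, and erythroid markers had 2 of 18, with HBE1 at -2.19 and HEMGN at -0.64, all as log2 differences. The part of these cell types in the level of PIGR was not tested.

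**Figure D3:**
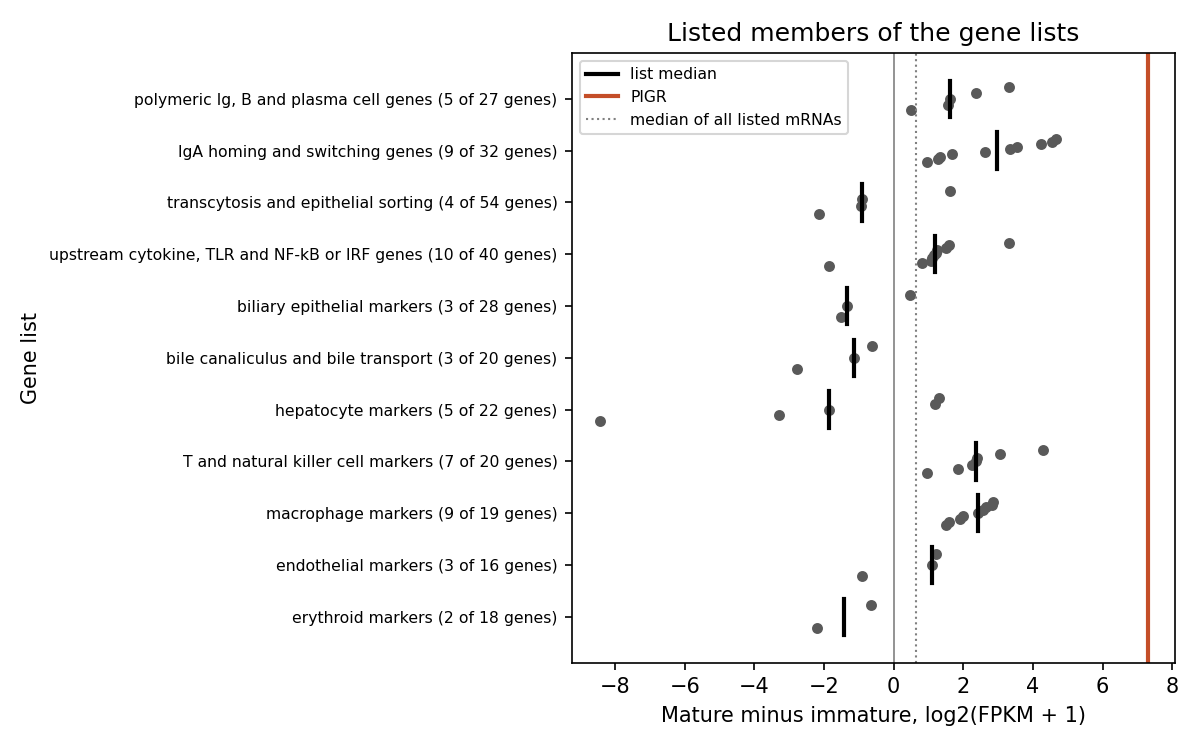
Mature minus immature difference on log2(FPKM + 1) of each matched row (points) of 11 gene lists, with the median of these rows (black bar), the median of all listed mRNAs (dotted line, 0.64) and PIGR (coloured line, 7.29). Leukocyte and IgA lists lie to the right of 0, and biliary and bile transport lists mostly to the left.

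In the RefSeq annotation of the GRCg7b assembly, from which no coordinates were taken, IL10, MAPKAPK2 and DYRK3 lie on the one side of PIGR, and FCMAR, C1orf116 and YOD1 on the other. Of the 16 nearest protein-coding genes, 8 on each side, none was found by symbol or synonym among the listed mRNAs of chromosome 26. Within 500 kb of PIGR in the coordinates of the deposited table lay 4 other listed mRNAs and 2 listed lncRNAs. Of these mRNAs 1 passed a difference of 1 and 2 were under -1, beside 35.9% and 29.8% of all listed mRNAs. The nearest was ENSGALG00000023946, an uncharacterized protein gene 98.8 kb away, with 5.06 FPKM in mature and 0.521 FPKM in immature livers (1.99). On the other side ENSGALG00000000791, 188 kb away, had 1.08 FPKM in mature and 6.40 FPKM in immature livers (-1.83). RAB7B, a small GTPase of late endosomes 225 kb away, had 0.257 FPKM in mature and 1.16 FPKM in immature livers (-0.78), and the kinase gene NUAK2, 493 kb away, had 0.542 FPKM in mature and 2.45 FPKM in immature livers (-1.16).

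The 2 lncRNAs near PIGR, TCONS_00037533 and TCONS_00037536, are intergenic by their class code and lie 299 and 323 kb away. Their levels were 0.752 and 0.853 FPKM in mature livers, and 0.206 and 0.233 FPKM in immature livers, with differences of 0.54 and 0.59. On the whole of chromosome 26, 26 mRNAs were listed. Without PIGR, 7 of them passed a difference of 1 and 7 were under -1, with a median of 0.47. Over all listed mRNAs 35.9% passed 1 and 29.8% were under -1, with a median of 0.64. No listed neighbour within 500 kb had a difference over 1.99.

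**Figure D4:**
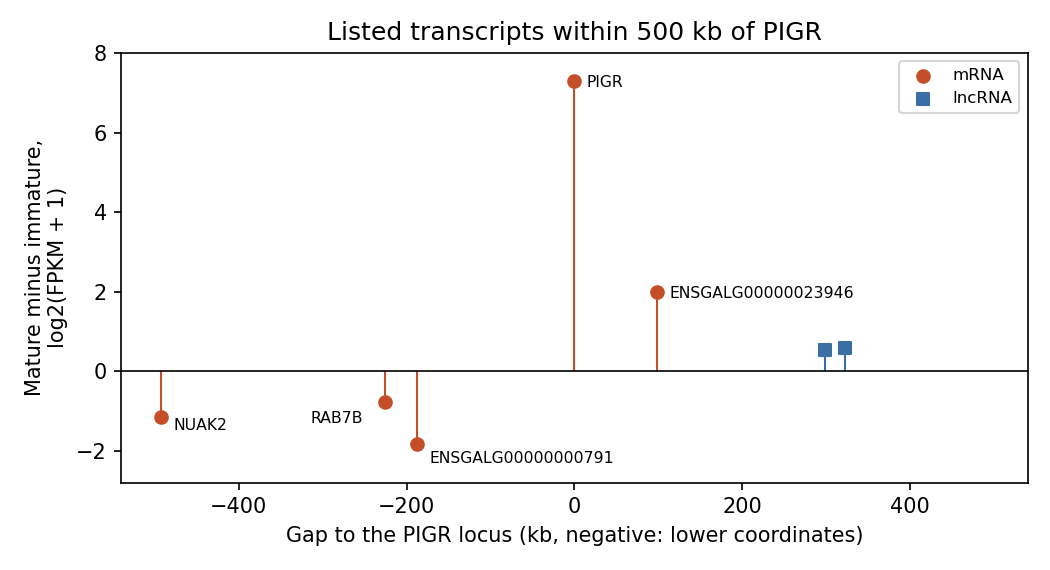
Mature minus immature difference on log2(FPKM + 1) (y axis) of the listed mRNAs (circles) and lncRNAs (squares) within 500 kb of PIGR, by the gap in kb between their locus and that of PIGR (x axis, 0 for PIGR itself). PIGR stands at 7.29, the next highest is ENSGALG00000023946 at 1.99, and the 3 mRNAs at lower coordinates are all below 0.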

How the data were processed

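RNA of 6 liver libraries was sequenced by the study in paired reads. FPKM of each transcript, 1 value per group, were computed and deposited by the authors, for transcripts they had called only. As tools, with no roles, the submitters' notes list Cufflinks and Cuffdiff, TopHat with Bowtie2 2.0.6, DESeq and FastQC. Further deposited columns hold the authors' log2 fold changes, p-values and calls, which were not used. With values of groups alone, a limma fit across libraries could not be made, and no test was run. Values per library from other sources of the study were not used here.

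Differences were taken on log2(FPKM + 1) with Python 3.11.15, pandas 2.3.3 and numpy 2.4.6, and the steps were tested on simulated data. Symbols of 12 gene lists and of the table were matched through RefSeq synonyms (GRCg7b), and a list was described by its members past 1 or under -1. Rows under names that this matching did not link were missed, BAFF and IL4RA among them, so the list counts are of matched genes. Genes named were PIGR, those within 5 ranks of it, the 5 nearest by distance, listed transcripts within 500 kb, the IgA pathway and, per list, up to 4 members with the largest differences; others were chosen after their values were seen. Members and lists were chosen with earlier results of these data known. The alternatives tried were other pseudocounts (0.1, 0.01 and none), a minimum mean of 1 FPKM, rows with symbols or with values above 0, plain differences, and scaling to a median difference of 0. A ratio with a floor of 0.5 FPKM was added after seeing the data.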

Additional observations from a re-analysis of the deposited data

How the results depend on the processing

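With 184.534 FPKM in mature and 0.185458 FPKM in immature livers, PIGR could not change direction under the alternatives tried. Its difference was 9.34 with a pseudocount of 0.1, 9.88 with 0.01, 9.96 without one, and 6.19 with mature values scaled by 0.465 so that the median difference of the listed mRNAs, 0.64 as deposited, became 0. PIGR was 2nd among the rises with a pseudocount of 0.01 and 42nd by the plain difference in FPKM. It stayed first with a pseudocount of 0.1, and with a floor of 0.5 FPKM under the ratio, chosen after seeing the data. Without a pseudocount it was first among the 1466 mRNAs with both values above 0. The 9 mRNAs at 0 in immature livers have no finite difference without one. A minimum mean of 1 FPKM, symbols only, and both values above 0 took out other rows and kept PIGR. These filters therefore could not lower its rank.

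As deposited, 532 mRNAs passed a difference of 1 and 441 were under -1, so 54.7% of these were higher. Scaling gave 157 higher and 582 lower (21.2% higher), and a pseudocount of 0.01 gave 810 and 668. Without a pseudocount all 1480 listed mRNAs passed, 812 higher and 668 lower, with rows at 0 in a group counted. The authors had selected the rows for differing, so this count was fixed in advance. By its construction the scaling lowers each difference, and the listed mRNAs were selected for differing, so their median is no neutral base. Scaled, the matched members past 1 were 0 endothelial (1 under -1), 0 hepatocyte, 5 macrophage, and 2 polymeric immunoglobulin and B cell. They were 0 for transcytosis (3 under -1) and 1 for the list that holds NFKBIA, the inducing signals and transcription factors. With a pseudocount of 0.1, the list counts that changed by over 1.5 times were 1 biliary marker past 1, and 1 endothelial, 2 erythroid and 3 transcytosis genes under -1. No member of the lists changed sign with scaling.

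No paired analysis was possible because the deposited values are of groups, and leaving out libraries was not run, since the values used are of groups. The spread between birds, the depth and the transcripts of PIGR that are not listed limit what the values show.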
